A study of Mus musculus with 12 samples.

Results

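Interferon-stimulated genes are the genes that cells switch on after interferon binds its receptors. A list of 41 of them, chosen by gene symbol, was followed through 12 arrays of mouse heart muscle cells. Of the 41, 40 had a probe set of that symbol among the 24704 genes with 1 symbol, and Ifi44 was not analysed here. A probe set is the group of array probes that reads 1 gene. The 34 members whose signal lay above the median of the array on at least 3 of the 12 arrays were tested, beside 13737 such genes in all. The 6 others, Dhx58, Mx1, Mx2, Oas1a, Ifitm1 and Eif2ak2, were dim.

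The cells were ventricular myocytes isolated enzymatically from hearts of adult mice and kept for 24 h with or without 100 nM isoprenaline (Iso), an agonist of beta-adrenergic receptors. Of the 6 mice, 3 were wild type (WT) and 3 lacked the delta and gamma forms of the calcium/calmodulin-dependent kinase CaMKII (double knockout, DKO). The study asked whether phosphorylation of histone H3 after Iso goes with CaMKII-dependent changes of expression. Myocytes of each mouse gave 1 untreated and 1 Iso-treated array, so untreated WT, Iso-treated WT, untreated DKO and Iso-treated DKO have 3 arrays each. Replicate 1 of both WT groups is 1 mouse, and likewise for the other replicate numbers and for the DKO groups. The labels name neither the strain nor the cells in which the deletion took place, and the sources used here do not say how it was made. Signals are log2 values, and this small number of arrays limits the precision of every value.

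Type I interferons bind the receptor chains Ifnar1 and Ifnar2, whose kinases Jak1 and Tyk2 phosphorylate signal transducers such as Stat2. Stat2 joins Irf9 in a complex that binds the interferon-stimulated response element in promoters. Interferon gamma binds Ifngr1 and Ifngr2 and acts mainly through gamma-activated sites. The induced proteins sense viral RNA, degrade it, block viral entry or budding, or feed peptides to antigen presentation. In the heart this program is known from viral myocarditis.

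The promoters of the members hold these elements more often than promoters at large. Windows of 300 bases, from 250 before to 50 after an annotated start, were taken from RefSeq (build GRCm38.p6), and 31 members had at least 1. The core of the response element was searched on both strands as GAAA, any 2 bases, and GAAA again, and the gamma-activated site as TTCNNNGAA, which reads the same on both strands. The first was found in 18 of the 31 members (58.1%), against 3.99% of all 27025 genes with a window. The second was found in 10 (32.3%), against 9.55% of all genes, and 6 members had both. Both cores can overlap, and a match describes letters and not binding. Irf7, Irf9, Oasl1, Oasl2, Tap1, Trim25, Xaf1, Ifi44 and Ifitm1 held neither in the window.

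A few stretches that lie before the start show how the elements are laid out in members whose values are given further on. They are written 5′ to 3′ on the strand of the gene, with every base of a match in capitals. Isg15, Ifit1, Rsad2 and Gbp2 hold the response element, Bst2 and Igtp both elements, and Irf1 the gamma-activated site. In Isg15 3 matches overlap. In Ifit1 (2 matches), Rsad2 and Gbp2 every match is on the opposite strand and reads TTTC, any 2 bases and TTTC.
Isg15: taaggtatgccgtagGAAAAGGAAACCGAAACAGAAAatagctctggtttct
Ifit1: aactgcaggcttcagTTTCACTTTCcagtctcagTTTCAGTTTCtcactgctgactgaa
Rsad2: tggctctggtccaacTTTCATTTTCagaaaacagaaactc
Gbp2: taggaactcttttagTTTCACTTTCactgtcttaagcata
Bst2: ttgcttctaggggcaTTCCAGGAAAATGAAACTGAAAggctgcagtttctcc
Igtp: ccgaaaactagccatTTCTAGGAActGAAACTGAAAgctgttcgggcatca
Irf1: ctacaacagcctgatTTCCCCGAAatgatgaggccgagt
These stretches lie at chr4:156200860-156200911 (Isg15, minus strand, 93 to 42 bases before the start), chr19:34640770-34640828 (Ifit1, plus strand, 119 to 61 bases before the start), chr12:26456548-26456587 (Rsad2, minus strand, 135 to 96 bases before the start), chr3:142620589-142620628 (Gbp2, plus strand, 74 to 35 bases before the start), chr8:71537572-71537623 (Bst2, minus strand, 151 to 100 bases before the start), chr11:58199496-58199546 (Igtp, plus strand, 60 to 10 bases before the start) and chr11:53769909-53769947 (Irf1, plus strand, 105 to 67 bases before the start).

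Of the targeted kinases, Camk2g passed as lower in DKO without Iso (-1.17, limma adjusted p = 0.0361) and with Iso (-1.67, adjusted p = 0.00238), with all 6 DKO arrays (3.57 to 4.20) below all 6 WT arrays (4.78 to 5.80). Camk2d read 7.36 to 7.98 in DKO and 7.94 to 8.42 in WT, and did not pass (-0.29 and -0.35, adjusted p = 0.446 and 0.640). Whether its probes lie in the deleted part of the gene is not known here, so Camk2d does not check the labels.

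Untreated DKO array 3 stood apart from the rest, with a median correlation of 0.956 with the other arrays across genes, where the other 11 had 0.984 to 0.988. The 10 endothelial markers were on average 0.43 higher there than their 12-array means, and -0.26 to 0.19 from them on the other 11 arrays. The myocyte genes Myh6, Tnnt2 and Actc1 read 11.86 or more on every array. All 10 endothelial markers were above the array median on every array, among them Pecam1 (7.78 to 8.58). Of 13 measured macrophage and leukocyte markers, 8 were above it on every array, led by Cd74 (7.23 to 8.55), 4 on some, and Ptprc (2.90 to 3.30) on none. The fibroblast markers were mixed, with Dcn at 10.12 to 11.01, Col3a1 at 3.71 to 4.09 and Tcf21 dim on all arrays but 1. In RNA from such a culture, fewer cells of a type and less RNA per cell cannot be told apart. Values without untreated DKO array 3 are given for Isg15, Oas2, Stat2, Rsad2, Ifitm2, Ifitm3, Bst2, Ifi35 and Xaf1, and other members also shifted without it.

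Of the 40 measured members, 25 lay above the array median, near 3.31, on every array. The lowest and highest array of a tested member were 0.32 (Oas3) to 1.86 (Rsad2) apart. Mx1 and Ifitm1 lay below the median on all 12 arrays, at 2.61 to 3.10 and 2.58 to 3.03. Ifnb1 and Ifng, which encode interferon beta and gamma, were dim on all 12 arrays as well, at 2.58 to 3.20 and 2.73 to 3.09. A low signal does not show that a transcript is absent.

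**Figure D1:**
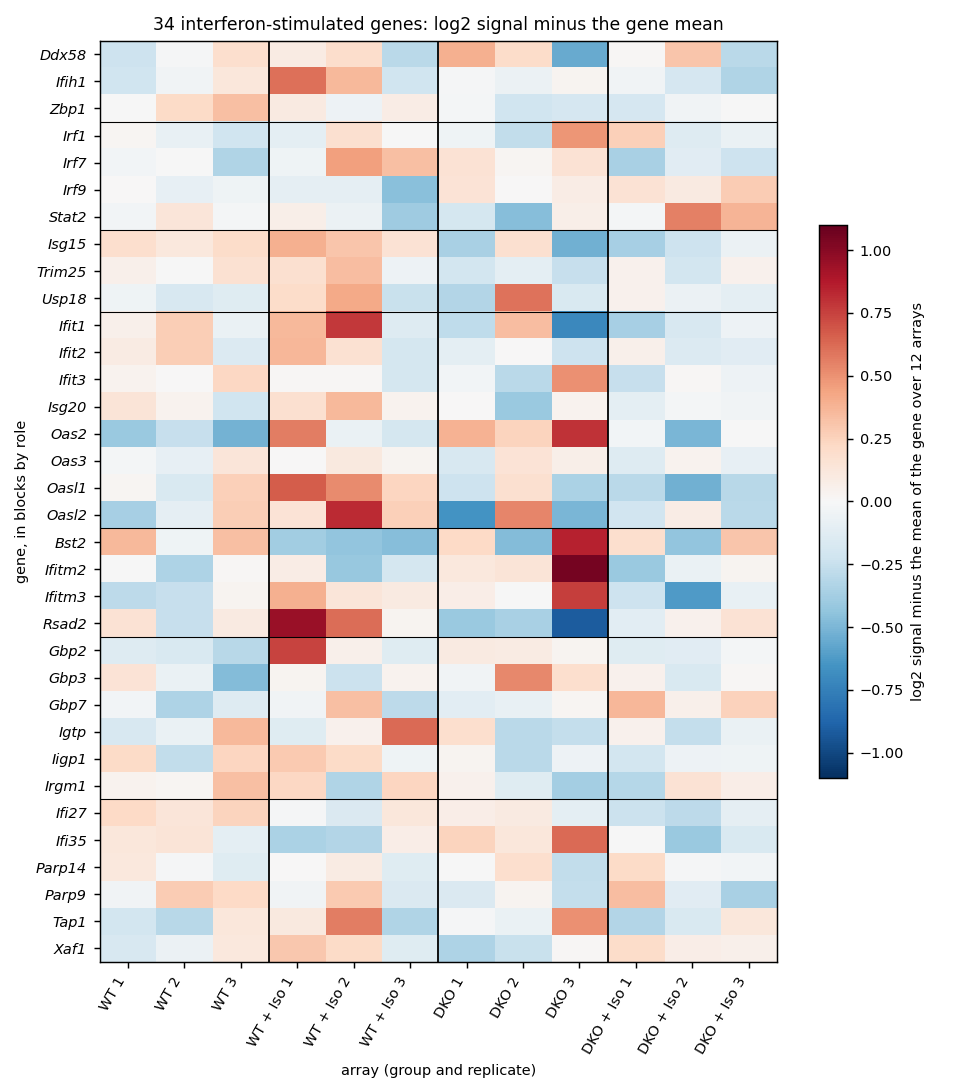
Heat map of the log2 signal of the 34 tested members (rows, in blocks by role) on the 12 arrays (columns, grouped by genotype and treatment), as the difference from the mean of each gene over all arrays. Red is higher and blue lower; on Iso-treated WT arrays 1 and 2, 25 and 24 of the 34 lie above their means, and untreated DKO array 3 holds the highest Ifitm2 (9.42) and the lowest Rsad2 (5.58).

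The first comparison asked whether Iso moved the program in WT myocytes. None of the 34 members passed (limma, lowest adjusted p = 0.67), where 0.0218% of all 13737 genes did. At an unadjusted p under 0.05 there were 6 members (17.6%), against 6.7% of all genes. Of these, 5 were higher with Iso (3.46% of all genes) and 1 lower (3.24%). The 6 became between 1 and 3 on leaving out any 1 of the 6 WT arrays except Iso-treated array 3. Differences were above 0 for 23 of 34, with a median of 0.10, beside -0.01 and 47.8% above 0 over all genes. The 95% interval of a member, not adjusted for the number of genes, typically reached 0.39 to either side. Differences under about that size could not be resolved. Larger ones, such as -0.64 for Bst2 (limma adjusted p = 0.705), did not pass either.

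The same comparison in DKO myocytes gave no common direction. Again 0 of 34 passed (limma, lowest adjusted p = 0.141), with 0.051% of all genes passing. Unadjusted, 7 members (20.6%) stood beside 18.4% of all genes, 2 of them higher (9.46% of all genes) and 5 lower (8.94%). Without Iso-treated DKO array 2 there were 4. The median was 0.00, with 17 above and 17 below 0. Over all genes 50.9% lay above 0. Groups did not overlap for 9 members, against 21.5% of all genes, with 3 higher (10.8% of all genes) and 6 lower (10.7%). In WT it was 6, against 15.6%, with 3 higher (7.16% of all genes) and 3 lower (8.42%).

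The difference between these Iso effects, DKO minus WT, was then tested directly as an interaction. None of the 34 passed (limma, lowest adjusted p = 0.319; 0.0146% of all genes passed). At an unadjusted p under 0.05 there were 6 (17.6%, against 10.1% of all genes), 5 of them negative (4.62% of all genes) and 1 positive (5.48%). The median was -0.11 with 11 of 34 above 0, beside 0.01 and 50.8% over all genes. The 5 negative ones were Oas2, Irf7, Ifitm3, Oasl1 and Gbp2, and the positive one was Stat2.

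Between genotypes without Iso, 0 of 34 members passed (limma, lowest adjusted p = 0.136; 0.204% of all genes passed). Unadjusted there were 6 (17.6%, against 13.8% of all genes), 3 higher in DKO (6.36% of all genes) and 3 lower (7.45%). Without untreated WT array 2 or 3 there were 3, and without untreated DKO array 3 there were 2. The median was -0.03, with 15 of 34 above 0, against 48.1% of all genes. The groups did not overlap for 9 members (17% of all genes), 5 higher in DKO (7.84%) and 4 lower (9.21%).

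With Iso, again 0 of 34 passed (limma, lowest adjusted p = 0.0764), where 0.306% of all genes did. Here 25 of 34 members lay lower in DKO, with a median of -0.18 beside 0.00 over all genes, of which 50.9% lay higher. Unadjusted there were 8 (23.5%, against 7.91% of all genes), 6 lower (4.18% of all genes) and 2 higher (3.73%), or 5 in all without Iso-treated WT array 1 or Iso-treated DKO array 2. The groups did not overlap for 7 members, against 17.6% of all genes, with 6 lower in DKO (8.56% of all genes) and 1 higher (9.03%). All 5 comparisons draw on the same 12 arrays, and those that share a group are not independent.

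**Figure D2:**
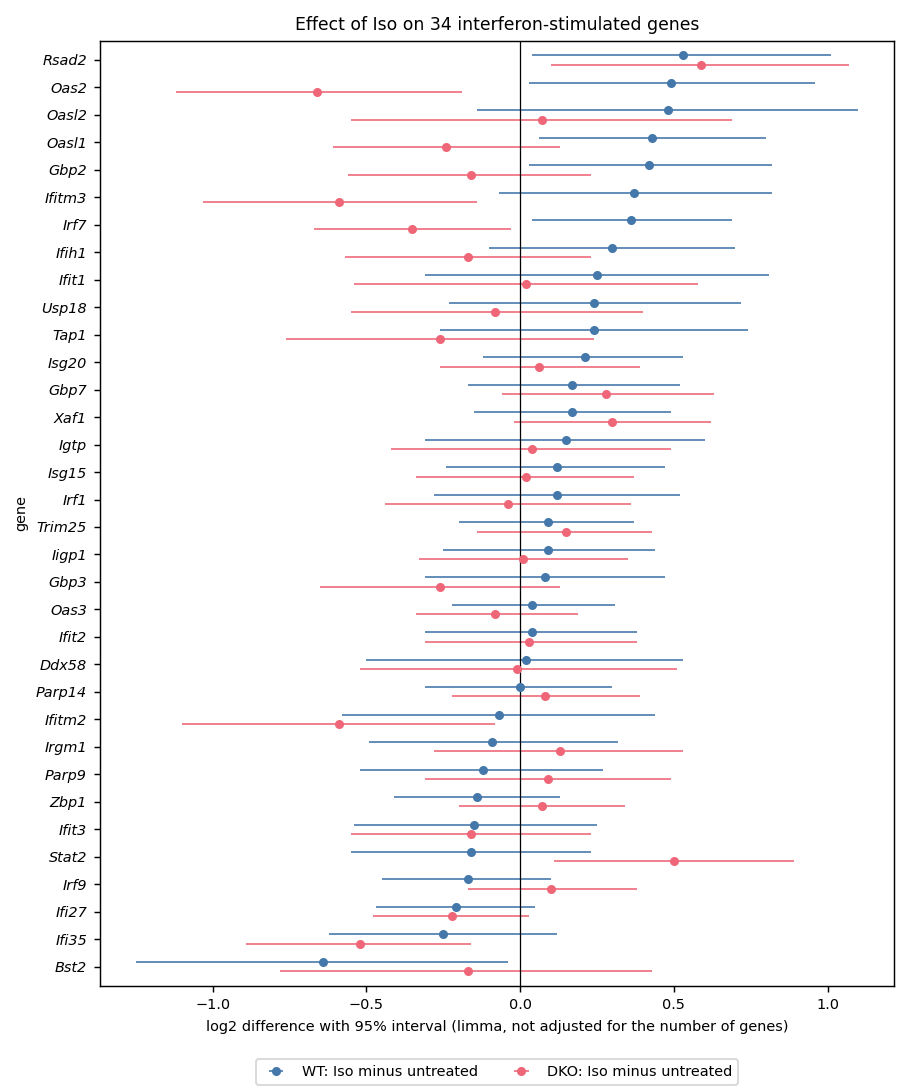
Log2 difference, Iso-treated minus untreated, of each of the 34 tested members in WT (blue) and DKO (red) myocytes, with 95% intervals from limma that are not adjusted for the number of genes. Rsad2 lies above 0 in both genotypes (0.53 and 0.59), while Oas2 (0.49 and -0.66) and Ifitm3 (0.37 and -0.59) lie on opposite sides.

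The sensors of foreign nucleic acid lay near the array median. Ifih1 and Ddx58 encode cytosolic receptors for double-stranded RNA, Dhx58 their regulator, and Zbp1 a sensor of Z-form nucleic acid. The Zbp1 signals were 3.34, 3.55 and 3.67 for WT, 3.44, 3.29 and 3.42 for WT with Iso, 3.32, 3.12 and 3.16 for DKO, and 3.16, 3.30 and 3.34 for DKO with Iso, in the order of replicates 1 to 3. All 3 untreated DKO arrays lay below the untreated WT arrays, by 0.32 on average (SE 0.12, limma adjusted p = 0.287). With Iso, Ifih1 lay 0.43 lower in DKO (SE 0.19, adjusted p = 0.588), with overlapping groups. Ddx58 read 3.25 to 4.20, with its lowest value on untreated DKO array 3, and Dhx58 was dim at 2.98 to 3.34.

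The transcription factors of the pathway did not share a direction. Irf9 and Stat2 are partners in the complex that binds the response element, and Irf7 amplifies interferon production. The Irf9 signals were 4.07, 3.98 and 4.02 for WT, 3.97, 3.97 and 3.61 for WT with Iso, 4.22, 4.07 and 4.15 for DKO, and 4.23, 4.17 and 4.35 for DKO with Iso. The 3 Iso-treated DKO arrays were above all 3 Iso-treated WT arrays (difference 0.40, SE 0.13, limma adjusted p = 0.324). The Stat2 signals were 4.19, 4.35 and 4.20 for WT, 4.28, 4.15 and 3.83 for WT with Iso, 4.02, 3.75 and 4.28 for DKO, and 4.20, 4.77 and 4.59 for DKO with Iso. With Iso, Stat2 read higher in every DKO mouse (0.18, 1.01 and 0.31; limma difference 0.50, SE 0.18, adjusted p = 0.170), and in 1 of 3 WT mice (-0.16). The interaction was 0.66 (SE 0.25, adjusted p = 0.428). Without untreated DKO array 3 the Iso effect in DKO was 0.63 and the interaction 0.79.

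Irf7 ran the other way. The Irf7 signals were 3.79, 3.81 and 3.49 for WT, 3.77, 4.27 and 4.15 for WT with Iso, 3.98, 3.84 and 3.98 for DKO, and 3.46, 3.69 and 3.59 for DKO with Iso. It was lower with Iso in all 3 DKO mice (-0.35, SE 0.15, limma adjusted p = 0.232) and higher in 2 of 3 WT mice (0.36, SE 0.15, adjusted p = 0.693). Under Iso the highest DKO array was below the lowest WT array (-0.48, SE 0.15, adjusted p = 0.324). The interaction was -0.72 (SE 0.21, adjusted p = 0.373). Irf1, the factor that interferon gamma induces, read 4.36 to 5.12, with its highest value on untreated DKO array 3 and group means of 4.54 to 4.68.

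Isg15 is a ubiquitin-like protein that is attached to other proteins, Usp18 removes it and also dampens the receptor, and Trim25 is a ubiquitin ligase that activates Ddx58. The Isg15 signals were 4.18, 4.11 and 4.20 for WT, 4.39, 4.30 and 4.15 for WT with Iso, 3.64, 4.17 and 3.47 for DKO, and 3.63, 3.77 and 3.93 for DKO with Iso. All 3 Iso-treated DKO arrays lay below the lowest Iso-treated WT array (-0.50, SE 0.17, limma adjusted p = 0.374). Without Iso the difference was -0.40 (SE 0.17, adjusted p = 0.305), and -0.26 without untreated DKO array 3; untreated DKO array 2 lay among the WT values. The Usp18 signals were 3.70, 3.57 and 3.61 for WT, 3.95, 4.16 and 3.50 for WT with Iso, 3.42, 4.34 and 3.58 for DKO, and 3.79, 3.68 and 3.64 for DKO with Iso. Its group means of 3.63 ± 0.0654, 3.87 ± 0.335, 3.78 ± 0.490 and 3.70 ± 0.0781 (SD, n = 3; in the same order of groups) differed by less than the spread of untreated DKO. Trim25 lay lower in untreated DKO than in untreated WT without overlap (4.01 against 4.27, limma adjusted p = 0.401).

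Under Iso, all 8 tested effectors that bind or degrade RNA were lower in DKO than in WT, where 50.9% of all genes lay higher. They were lower by 0.05 (Ifit3) to 0.85 (Oasl1), with a median of -0.27, and none passed. Their mean deviations were 0.29, 0.34 and -0.02 on Iso-treated WT arrays 1 to 3, and -0.17, -0.15 and -0.12 on the Iso-treated DKO arrays. Without Iso 6 of the 8 were lower, where 48.1% of all genes lay higher. This grouping by role was made after values were seen. Oasl1 restrains translation of Irf7 and is an inactive relative of the oligoadenylate synthetases. The Oasl1 signals were 4.27, 4.08 and 4.51 for WT, 4.91, 4.77 and 4.48 for WT with Iso, 4.02, 4.42 and 3.90 for DKO, and 3.95, 3.72 and 3.94 for DKO with Iso. Every Iso-treated DKO array lay below every Iso-treated WT array (-0.85, 95% interval -1.22 to -0.48, SE 0.17, limma adjusted p = 0.0764), the smallest p of a member in any comparison. Over the alternatives its adjusted p ran from 0.0105 to 0.367. It passed with array weights (adjusted p = 0.0105), in a fit of only these 6 arrays (0.0367), and without untreated DKO array 2 (0.0355) or 3 (0.0249).

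Oas2 makes oligoadenylates that activate an RNase. The Oas2 signals were 3.63, 3.78 and 3.51 for WT, 4.60, 3.96 and 3.84 for WT with Iso, 4.42, 4.28 and 4.83 for DKO, and 4.00, 3.53 and 4.03 for DKO with Iso. Untreated DKO lay above untreated WT on every array (0.87, SE 0.21, limma adjusted p = 0.136). With Iso it was higher in 3 of 3 WT mice (0.49, SE 0.21, adjusted p = 0.705) and lower in 3 of 3 DKO mice (-0.66, SE 0.21, adjusted p = 0.143). Its interaction of -1.15 (95% interval -1.80 to -0.49, SE 0.30, adjusted p = 0.319) had the smallest p of the members in that test. Without untreated DKO array 3, Oas2 differed by 0.71 between untreated DKO and WT and by -0.50 with Iso in DKO, with an interaction of -0.99. Oas3 read 3.21 to 3.53 over all arrays, and Isg20, an exonuclease, 3.91 to 4.68. Oas1a (2.75 to 3.47) and Eif2ak2 (2.87 to 3.58), the kinase that halts translation on sensing double-stranded RNA, were above the array median on 2 arrays each and were not tested.

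The Ifit proteins bind viral RNA. The Ifit1 signals were 3.94, 4.15 and 3.81 for WT, 4.24, 4.66 and 3.74 for WT with Iso, 3.60, 4.22 and 3.17 for DKO, and 3.52, 3.71 and 3.83 for DKO with Iso. Untreated DKO array 3 was lowest and Iso-treated WT array 2 highest, and the Iso-treated groups overlapped (-0.53, SE 0.26, limma adjusted p = 0.671). The Ifit3 signals were 4.32, 4.29 and 4.51 for WT, 4.30, 4.30 and 4.09 for WT with Iso, 4.25, 3.99 and 4.79 for DKO, and 4.03, 4.30 and 4.23 for DKO with Iso. Ifit3 was highest on untreated DKO array 3, where Ifit1 was lowest. Ifit2 was near the array median (3.03 to 3.62).

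Some of these genes stood out together on some arrays, a set picked after values were seen. In untreated DKO array 2, Ifit1 (4.22), Isg15 (4.17), Oasl1 (4.42), Oasl2 (4.22) and Usp18 (4.34) were each above the other 2 untreated DKO arrays. Oasl2 read 3.03 and 3.18 there, and Usp18 3.42 and 3.58. Other members went the other way. Of the 34 tested members, untreated DKO array 2 held the highest value over 12 arrays of 3 and the lowest of 8. Among the lowest were Ifit3 (3.99), Stat2 (3.75) and Bst2 (6.20). On that array 18 of the 34 lay above their own means. In the Iso-treated culture of the same mouse the 5 read 3.71, 3.77, 3.72, 3.77 and 3.68. In WT, Iso-treated arrays 1 and 2 were both above array 3 for 4 of the 5, and for Oasl2 only array 2 was (4.51, against 3.84 and 3.95).

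**Figure D3:**
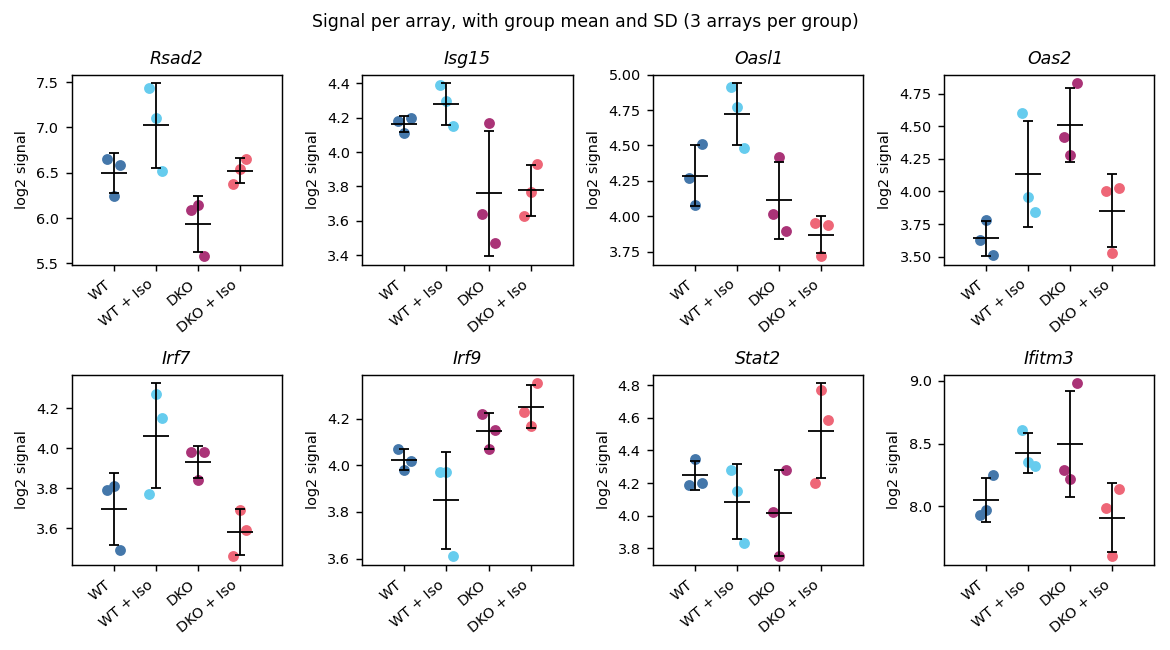
Log2 signal of 8 members on each array (points, replicates 1 to 3 from left to right), with the group mean (bar) and SD (whiskers, n = 3); each panel has its own axis, which does not start at 0. Oasl1, Irf7, Isg15 and Ifitm3 lie lower, and Irf9 higher, on all 3 Iso-treated DKO arrays than on all Iso-treated WT arrays.

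Rsad2, or viperin, makes a chain-terminating nucleotide and sits on lipid droplets. The Rsad2 signals were 6.65, 6.24 and 6.59 for WT, 7.44, 7.11 and 6.52 for WT with Iso, 6.09, 6.14 and 5.58 for DKO, and 6.38, 6.54 and 6.65 for DKO with Iso. It was higher with Iso in 5 of 6 mice, by 0.79, 0.87 and -0.07 in WT (0.53, SE 0.22, limma adjusted p = 0.695) and by 0.28, 0.40 and 1.07 in DKO (0.59, SE 0.22, adjusted p = 0.192). The interaction was 0.06 (95% interval -0.63 to 0.74, SE 0.32, adjusted p = 0.958), so a difference between the genotypes in this effect was not resolved. DKO arrays lay lower than WT without Iso (-0.56, SE 0.22, adjusted p = 0.294) and with Iso (-0.50, SE 0.22, adjusted p = 0.608), the former without overlap. Without untreated DKO array 3 the first became -0.38 the Iso effect in DKO 0.41, and the interaction -0.12.

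The Ifitm proteins block fusion of viruses with cell membranes, and Bst2 tethers budding virions. Ifitm2, Ifitm3 and Bst2 were each highest on untreated DKO array 3, and Bst2 was lowest on untreated DKO array 2. The Ifitm3 signals were 7.93, 7.97 and 8.25 for WT, 8.61, 8.35 and 8.32 for WT with Iso, 8.29, 8.22 and 8.98 for DKO, and 7.99, 7.60 and 8.14 for DKO with Iso. It was higher with Iso in 3 of 3 WT mice (0.37, SE 0.21, limma adjusted p = 0.808) and lower in 3 of 3 DKO mice (-0.59, SE 0.21, adjusted p = 0.165). Without untreated DKO array 3 the latter was -0.34 and the interaction went from -0.96 (SE 0.29, adjusted p = 0.383) to -0.72. Under Iso no DKO array reached a WT array (-0.51, SE 0.21, adjusted p = 0.539).

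Ifitm2 read 9.42 on untreated DKO array 3 and 7.95 to 8.51 elsewhere. Its Iso effect in DKO of -0.59 (SE 0.24, limma adjusted p = 0.208) was -0.28 without that array. The Bst2 signals were 7.03, 6.63 and 7.01 for WT, 6.29, 6.24 and 6.21 for WT with Iso, 6.89, 6.20 and 7.52 for DKO, and 6.86, 6.24 and 6.98 for DKO with Iso. Bst2 was lower with Iso in all 3 WT mice without overlap (-0.64, SE 0.28, adjusted p = 0.705), against -0.17 in DKO, or 0.15 without untreated DKO array 3. The Mx2 signals were 3.05, 3.19 and 2.71 for WT, 2.88, 3.54 and 2.94 for WT with Iso, 3.19, 3.23 and 2.97 for DKO, and 3.20, 3.03 and 3.16 for DKO with Iso. Mx2, a GTPase that restricts viruses, was thus dim on all arrays but 1 and was not tested.

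The interferon-inducible GTPases attack the membranes around intracellular pathogens. The Gbp2 signals were 3.79, 3.76 and 3.63 for WT, 4.67, 3.99 and 3.80 for WT with Iso, 4.03, 4.02 and 3.96 for DKO, and 3.80, 3.81 and 3.91 for DKO with Iso. With Iso the WT arrays lay above the untreated ones (0.42, SE 0.18, limma adjusted p = 0.696), and the difference was 0.17 without Iso-treated WT array 1, which carried the highest value. The Igtp signals were 5.31, 5.42 and 5.85 for WT, 5.36, 5.54 and 6.11 for WT with Iso, 5.67, 5.19 and 5.23 for DKO, and 5.54, 5.23 and 5.42 for DKO with Iso. Igtp overlapped between all groups. Gbp3, Irgm1 and Iigp1 ran from 3.83 to 4.84, 4.23 to 4.93 and 5.33 to 5.91, and Gbp7 (2.80 to 3.50) was above the array median on just 3 arrays, 2 of them Iso-treated DKO.

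Among the other members, Tap1 pumps peptides to MHC class I. The Tap1 signals were 4.94, 4.84 and 5.27 for WT, 5.25, 5.71 and 4.81 for WT with Iso, 5.13, 5.07 and 5.65 for DKO, and 4.82, 4.98 and 5.27 for DKO with Iso. Its groups overlapped in each comparison. The Ifi35 signals were 7.49, 7.51 and 7.26 for WT, 7.02, 7.04 and 7.44 for WT with Iso, 7.61, 7.49 and 7.99 for DKO, and 7.36, 6.96 and 7.20 for DKO with Iso. Ifi35, which binds Nmi, was lower with Iso in 3 of 3 DKO mice (-0.52, SE 0.17, limma adjusted p = 0.141), and by 0.38 without untreated DKO array 3. Ifi27 was lower with Iso in 5 of 6 mice (-0.21 in WT and -0.22 in DKO, adjusted p = 0.818 and 0.331). Parp9, Parp14 and Xaf1 read 3.41 to 4.10, 3.76 to 4.24 and 3.25 to 3.88. For Xaf1, higher with Iso in 5 of 6 mice, the DKO difference of 0.30 (adjusted p = 0.293) passed with array weights (0.42, adjusted p = 0.0441) and was 0.40 without untreated DKO array 3.

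**Figure D4:**
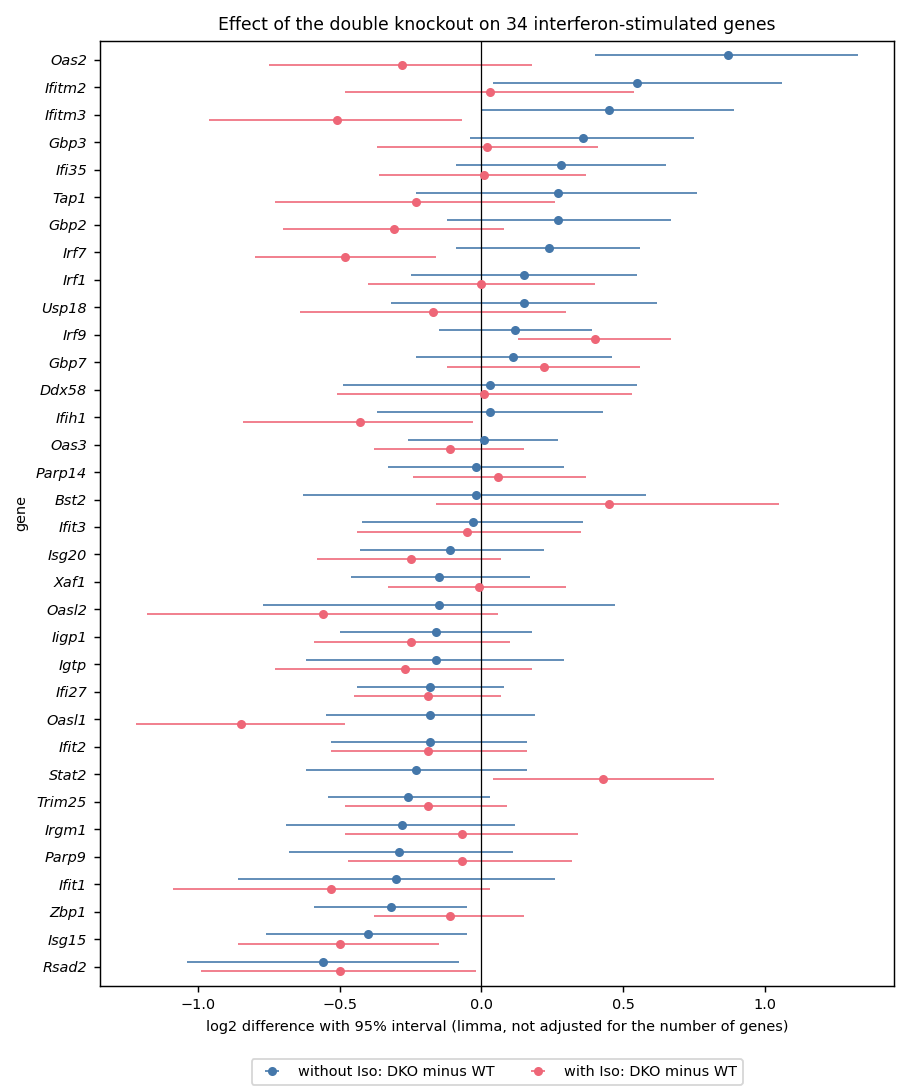
Log2 difference, DKO minus WT, of each of the 34 tested members without Iso (blue) and with Iso (red), with 95% intervals from limma that are not adjusted for the number of genes. With Iso 25 of 34 points lie left of 0, furthest Oasl1 (-0.85), while Stat2 (0.43), Irf9 (0.40) and Bst2 (0.45) lie to the right.

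Genes around the members were read from lists of the same pathway. All 4 receptor chains and the kinase Jak1 were above the array median on every array. Ifnar1 read 4.07 to 4.92, Ifnar2 7.41 to 7.70, Ifngr1 4.17 to 5.00, Ifngr2 9.71 to 10.18 and Jak1 7.55 to 8.69, while Tyk2 was dim on all arrays but 1. Tested were 11 of 20 listed ligands, receptors and signal transducers, 11 of 16 sensors, adaptors, kinases and factors of interferon induction, and 11 of 11 brakes. None passed in any of the 5 comparisons (limma), and the medians of these lists lay between -0.09 and 0.13. Stat3, which also serves interleukin 6 receptors, came nearest (0.46 with Iso in DKO, SE 0.11, limma adjusted p = 0.0845), and it was lower in untreated DKO than in untreated WT (-0.36, adjusted p = 0.203).

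Of 42 tested among 54 other listed interferon-stimulated genes, 1 passed in 1 comparison. Ube2l6, the enzyme that conjugates Isg15, was higher in untreated DKO than in untreated WT. The Ube2l6 signals were 4.26, 4.32 and 4.71 for WT, 5.33, 5.01 and 5.25 for WT with Iso, 5.89, 5.30 and 5.90 for DKO, and 5.00, 4.62 and 5.09 for DKO with Iso. With Iso the group means were 5.19 in WT and 4.91 in DKO, and these groups overlapped. Without Iso the groups did not overlap (1.27, SE 0.19, limma adjusted p = 0.0188). The call was lost without untreated WT array 1 or 2 (adjusted p = 0.124 and 0.117), without untreated DKO array 1 (0.0824) and with only the 6 arrays compared (0.231). Isg15 itself differed by -0.40 in that comparison.

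The medians of these 42 genes were 0.10 and -0.03 for Iso in WT and DKO, -0.18 for the interaction, and 0.07 and -0.05 for DKO against WT without and with Iso. For the 34 members they were 0.10, 0.00, -0.11, -0.03 and -0.18. Lgals3bp, a secreted glycoprotein, was lower with Iso in all 3 DKO mice (-0.72, SE 0.14, limma adjusted p = 0.0615), and Nmi, the partner of Ifi35, in all 3 WT mice (-0.66, SE 0.21, adjusted p = 0.549). H2-K1, an MHC class I heavy chain, had an interaction of -0.73 (SE 0.23, adjusted p = 0.392). Under Iso, H2-K1 (-0.47, SE 0.16, adjusted p = 0.406) and Ifi30 (-0.46, SE 0.13, adjusted p = 0.235), a lysosomal reductase of antigen processing, were lower in DKO than in WT without overlap.

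Marker lists of the cell types were set beside the members, array by array. On Iso-treated WT arrays 1 and 2 the members lay 0.17 and 0.16 above their means and on array 3 0.06 below (-0.06). The 3 atrial markers Sln, Myl7 and Myl4 lay on average 2.00 and 1.89 above on arrays 1 and 2 and at -0.90 on array 3. This mean was led by Sln (8.33, 8.11 and 3.27) and Myl7 (8.16, 7.93 and 4.82). Myl4 read 5.71, 5.83 and 5.41 on these arrays and was highest on untreated DKO array 3 (5.98). The endothelial markers lay on average at 0.19, 0.09 and -0.07. Without Iso-treated WT array 3 the median Iso effect of the members in WT was 0.18. With Iso, 9 of the 10 endothelial markers were higher in WT and 9 of 10 lower in DKO (medians 0.23 and -0.25), and none passed. Of the 10 cardiomyocyte markers, 10 had a difference with Iso above 0 in WT and 9 in DKO (medians 0.07 and 0.21), and none passed. The smallest in WT, of Atp2a2, rounds to 0.00. Over all genes 47.8% lay higher with Iso in WT and 50.9% in DKO.

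On the 3 Iso-treated DKO arrays, where the members lay at -0.07, -0.11 and -0.04, the 12 macrophage and leukocyte markers lay at -0.31, -0.38 and -0.21, below all other arrays (-0.02 to 0.21). The cardiomyocyte markers lay at 0.16, 0.25 and 0.05 there. Of these 12 markers 11 were lower in DKO than in WT under Iso, where 50.9% of all genes lay higher. Against 0.306% of all genes, 2 of the 12 passed. They were Cd74, the chaperone of MHC class II (-0.94, limma adjusted p = 0.0400), and Cd14, a co-receptor for lipopolysaccharide (-0.92, adjusted p = 0.0402). Both calls were lost on leaving out any 1 of the 6 Iso-treated arrays or untreated WT array 1 (highest adjusted p = 0.250), and with no filter on dim genes (0.0581). Cd74 also lost its call without untreated WT array 2 (0.0693) or untreated DKO array 1 (0.0519), and Cd14 without untreated WT array 3 (0.057) and with trend and robust eBayes (0.0611). Some of these markers, such as Cd74, also respond to interferon gamma. The part of these cell types in the values of the members was not tested.

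**Figure D5:**
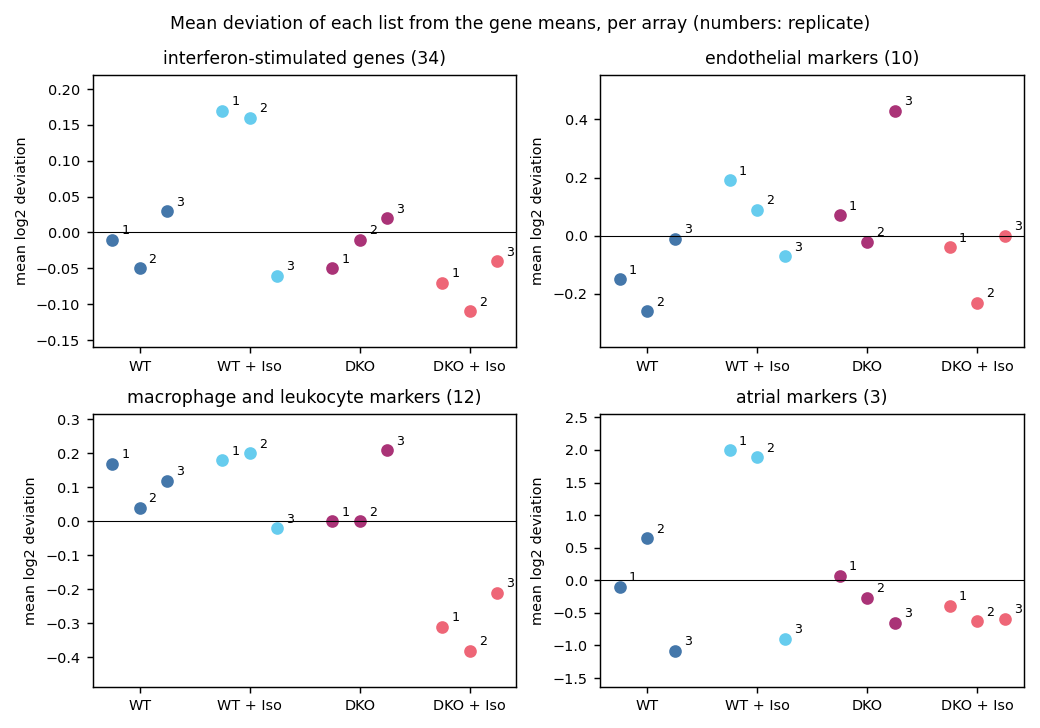
Mean log2 deviation from the gene means over 12 arrays, per array (points, numbered by replicate), for the 34 tested members, 10 endothelial, 12 macrophage and leukocyte and 3 atrial markers; the axes differ in scale. Iso-treated WT arrays 1 and 2 are highest for the members (0.17 and 0.16) and for the atrial markers (2.00 and 1.89), and Iso-treated DKO arrays are lowest for macrophage and leukocyte markers.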

How the data were processed

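The labels give 12 arrays from 6 mice in 4 groups of 3. Biotinylated cRNA, made from total RNA extracted with Trizol, was hybridised to Affymetrix arrays, per the labels' protocols. The deposited values are log2 signals that the authors summarised with RMA, per the submitters' processing notes; the sources used here give neither its version nor the array type and annotation. All 12 arrays share nearly 1 distribution of values, from 2.25 to 13.83, so a shift common to most genes would not be seen. Of 25428 probe sets, 723 had no single symbol (none, or more than 1) and were left out. Of 2 probe sets of 1 symbol the brighter was used. Near-identical relatives (Ifitm, Ifit, Oas and Gbp genes) may share probe signal, which was not checked here.

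limma 3.58.1 (R 4.3.3) fitted the 4 group means over all 12 arrays with eBayes. Benjamini-Hochberg adjustment covered the 13737 genes that exceeded the array median on at least 3 arrays, with 0.05 as the threshold for passing. Differences are log2, with limma's standard errors and 95% intervals. The call procedure was tested on simulated data whose differences were larger than those of any member. Recovery of differences of the members' size was not tested. Members, lists and tests were chosen with earlier results of these data known. Per-array values are given for 14 preset members, for the 4 with the smallest p in each comparison, and for other pathway genes that passed or had the 2 smallest p; others were named after their values were seen. Deviations in the text are from the mean of each gene over 12 arrays.

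The labels give 1 mouse number to an untreated and a treated array, so replicate numbers pair these 2 within a genotype. Deviations of paired arrays from their group means correlated at -0.0623 to 0.130 across genes, with a consensus of 0.0333, and at -0.0334 to 0.439 across the members alone. The choices varied were the filter (none, or the 75th percentile), median centring, quantile scaling on top, trend and robust eBayes, array weights, the mouse as a random block, only the arrays compared, and leaving out 1 array at a time. After seeing the data, a fit was added that omits replicate 3 of untreated DKO together with replicate 3 of Iso-treated WT.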

Additional observations from a re-analysis of the deposited data

How the results depend on the processing

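The count of 0 members passing in limma's test held in 97 of 104 values, 1 for each comparison under each alternative setting. These values share arrays and settings and are not independent. With array weights 2 members passed for Iso in DKO (Stat2 and Xaf1), 1 for DKO without Iso (Oas2) and 1 for DKO with Iso (Oasl1). For DKO with Iso, Oasl1 made it 1 also with only the arrays compared and without replicate 3 of untreated DKO and of Iso-treated WT (a fit chosen after seeing the data), and 0 to 1 on leaving out each array. With the filter at the 75th percentile, which tests fewer members, the median for Iso in DKO was -0.17 in place of 0.00. With the mouse as a random block 0 members passed in each of the 5 comparisons, and the pairing changed no call of a member. On leaving out single arrays the medians ran from 0.05 to 0.18 for Iso in WT, -0.07 to 0.00 for Iso in DKO, -0.16 to -0.04 for the interaction, and -0.08 to 0.03 and -0.19 to -0.10 for DKO without and with Iso. Over all genes, counts passing depended far more on the settings. They ran from 2 to 12 for Iso in WT (3 as reported), 0 to 1109 for Iso in DKO (7), 2 to 51 for the interaction (2), 2 to 698 for DKO without Iso (28) and 10 to 164 for DKO with Iso (42). The highest count in each of the last 4 came with array weights, and the cause was not tested. Many members lie near the array median, where a low signal over background limits what differences could be seen.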
